A study of Bos taurus with 12 samples.

Results

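Cytosolic NADPH supply and the pentose phosphate route were followed through 8 genes: PGLS, PGD, RPIA, RPE, TKT and TALDO1 of the pentose phosphate route, IDH1 (the NADP-dependent isocitrate dehydrogenase of the cytosol) and ME1 (the cytosolic malic enzyme). The members were named by their roles in the pathway, with earlier results of these data known. Their probes were those that the RefSeq identifier of the probe ties to a member symbol. These 8 genes were 8 of the 12787 genes with at least 1 named probe on the array, and 18 probes read them. Milk fat synthesis and cholesterol synthesis in the lactating mammary gland consume NADPH, which donates the electrons for each reduction. In the oxidative branch of the pentose phosphate route, glucose 6-phosphate is oxidized to ribulose 5-phosphate with release of NADPH, and in the non-oxidative branch the resulting pentoses are interconverted and returned to glycolysis. In ruminants, cytosolic isocitrate dehydrogenase is known as a further main source of NADPH for fat synthesis in the udder, while the malic enzyme contributes little.

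The samples were mammary gland (MG) biopsies of midlactation, multiparous Holstein cows, each hybridized to a one-colour (Cy3) bovine oligonucleotide array. In the control period (CONT, day 0, 6 arrays) the cows ate a lactation diet without restriction, and on day 6 of the restriction period (REST, 6 arrays) the feed on offer covered 50% of the calculated net energy requirement. The labels name 6 cows with 1 array in each period, so REST was compared with CONT within the cow, although the series text counts 5 cows. The methods state that a Holstein cow with mastitis was excluded, and the sources used here do not say whether it is among the 6. There was no group kept on full feed for the same days, so restriction, the passage of 6 days and a repeated biopsy cannot be told apart. The values are log2 processed signals minus the 75th percentile of the array, called normalized signal below, and a change is REST minus CONT on that log2 scale. Signals of different probes are not comparable as amounts of mRNA, so no gene is ranked against another by its level.

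Cows 1 and 2 lay on slide 1, cows 3 and 4 on slide 2, and cows 5 and 6 on slide 3. Slide 3 was dimmer: the 75th percentile of its arrays lay between 73.2 and 117 intensity units, against 252 to 390.0 on the others, and 41.9 to 48.0% of its spots were well above background, against 61.8 to 67.9%. Both samples of a cow shared a slide, so the change within a cow never crossed slides. Before the shift to the 75th percentile, signals were brighter in REST in 6 of 6 cows. A probe was tested where it was well above background on every array of at least 1 group, which held for 19403 probes of 7930 genes. Each gene is described by its tested probe of highest mean signal.

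Of the 8 genes, 6 could be tested, with 13 of their 18 probes, and RPE and ME1 could not. With the cow as a block in limma and a Benjamini-Hochberg threshold of 0.1 over all tested probes, 4 of the 6 changed. PGLS, PGD and IDH1 fell and RPIA rose. Over all tested genes, 16.2% changed: 9.27% fell and 6.94% rose. That balance moved with the scaling, and over all probes rises outnumbered falls (1985 against 1692) when normexp preceded the 75th percentile shift. The median change of the 6 genes was −0.21, against −0.01 over all tested genes. PGLS, PGD and IDH1 were lower and RPIA was higher in 6 of 6 cows, where 10.8% of all tested genes were lower and 7.49% higher in 6 of 6, 18.3% in all. The median of the 6 changes was below 0 in each cow, from −0.31 in cow 4 to −0.09 in cow 2. Without the cow in the model, 4.4% of all tested genes changed, and 1 of the 6, PGD. Without slide 3, 10.4% of all genes tested in the other 4 cows changed, and among the 8 genes PGD and IDH1 did.

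**Figure D1:**
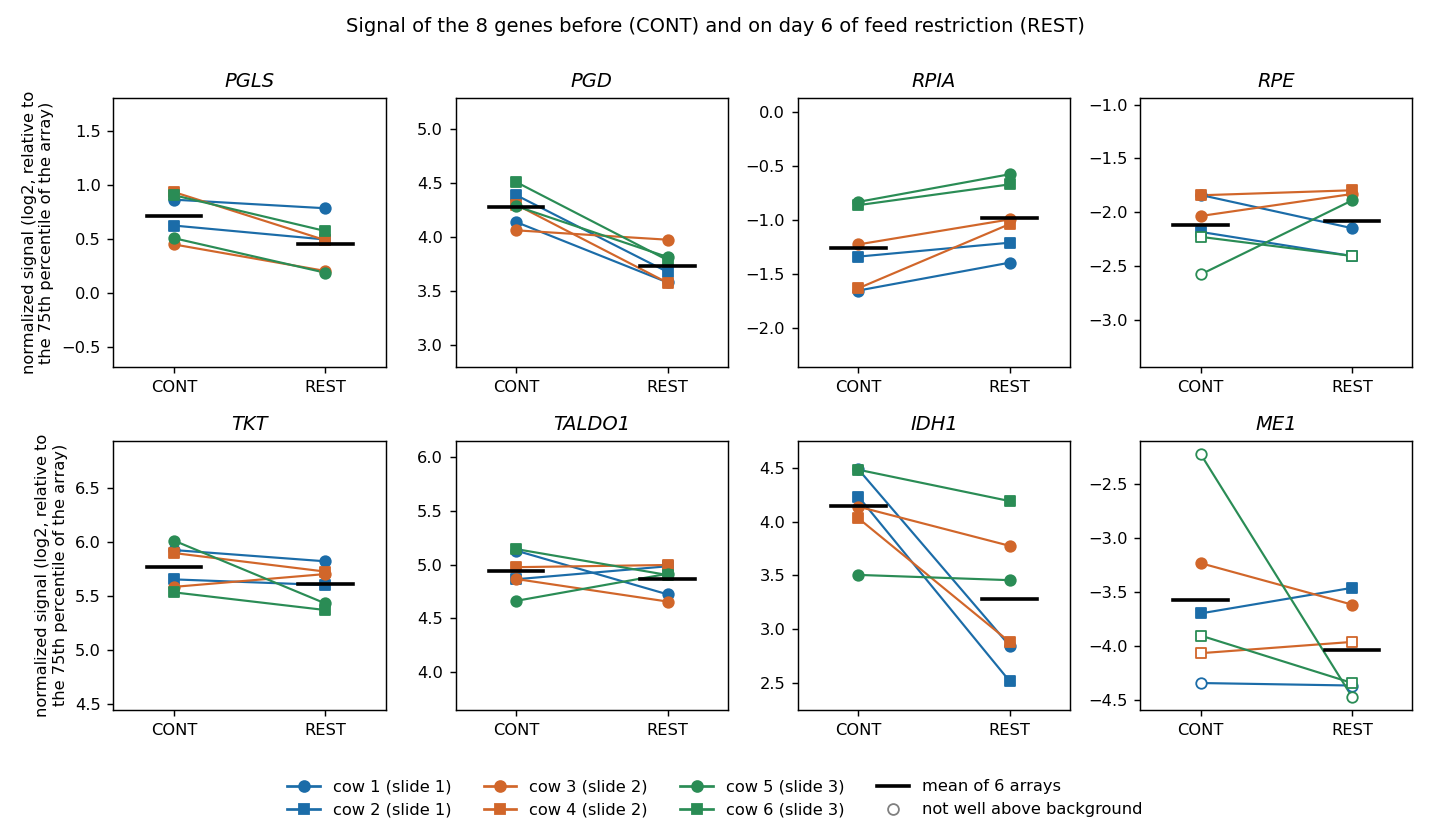
Normalized signal (log2, relative to the 75th percentile of the array) of the 8 genes in CONT and REST, 1 panel per gene with its own vertical axis. Each line is 1 cow, colour gives the slide, black bars are means of 6 arrays, and open symbols are signals not well above background; the probe shown for PGD is the one of the 8 on which CONT and REST do not overlap.

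PGLS, the 6-phosphogluconolactonase of the oxidative branch, opens the ring of the lactone formed from glucose 6-phosphate. In CONT the 6 arrays ranged from 0.45 to 0.94 with a median of 0.75, and in REST from 0.19 to 0.79 with a median of 0.49. The ranges overlapped, but every cow was lower in REST, by as little as 0.08 in cow 1 and as much as 0.45 in cow 4. The change was −0.26 (SE 0.08, limma adjusted p = 0.0812), which corresponds to −16.4%. The second PGLS probe fell too, by 0.22 on the log2 scale (limma adjusted p = 0.0983). Mean changes were −0.10, −0.35 and −0.33 on slides 1, 2 and 3. The call did not hold without the cow in the model (adjusted p = 0.340) or when any 1 of the 6 cows was left out (adjusted p from 0.109 to 0.208).

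PGD, the 6-phosphogluconate dehydrogenase that releases the second NADPH of the route together with carbon dioxide, had the clearest separation. Its normalized signal in CONT was 4.14, 4.39, 4.06, 4.30, 4.29 and 4.51 in cows 1 to 6, and in REST it was 3.58, 3.67, 3.97, 3.57, 3.81 and 3.78. On this probe all CONT arrays were above all REST arrays, which held for 2.27% of all tested genes in either direction and 1.66% downwards. Cow 3 started lowest and fell least, by 0.09, and the other 5 cows fell by 0.47 to 0.72. The change was −0.55 (SE 0.10, 95% confidence interval from −0.78 to −0.31, limma adjusted p = 0.0212), which corresponds to −31.5%.

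All 5 PGD probes passed the threshold, which 16.0% of all tested probes did, with changes from −0.55 to −0.50 and adjusted p from 0.0206 to 0.0280 in limma. They read 1 transcript and are not independent samples. The CONT and REST ranges were apart on 2 of the 5, the one described and 1 other, and overlapped on the other 3. Cow 3 changed least on each of the 5, by 0.06 to 0.12. PGD also passed without the cow in the model (adjusted p = 0.02), with the slide in place of the cow (adjusted p = 0.0153), and without any 1 cow (adjusted p from 0.0162 to 0.0739). Mean changes were −0.64, −0.41 and −0.60 on slides 1, 2 and 3. The 1 alternative in which it missed the threshold was the test of all probes without a filter on dim ones (adjusted p = 0.110).

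RPIA, the ribose 5-phosphate isomerase that makes the ribose of nucleotides from ribulose 5-phosphate, went the other way. Its single probe ranged from −1.65 to −0.83 in CONT (median −1.28) and from −1.39 to −0.57 in REST (median −1.01). The ranges overlapped widely, with an SD between cows of 0.36 in CONT, but each cow was higher in REST, by 0.13 in cow 2 up to 0.60 in cow 4. The change was 0.28 (SE 0.08, limma adjusted p = 0.0789), which corresponds to 21.2%, and the slides gave 0.19, 0.41 and 0.22. The call did not hold without the cow in the model (adjusted p = 0.475) or when any 1 cow was left out (adjusted p from 0.109 to 0.196). The rise was smaller with normexp, which corrected median spot signals for background and added an offset of 50 intensity units. It was then 0.038 after the 75th percentile shift and 0.088 after quantile normalization, without passing the threshold (adjusted p = 0.788 and 0.458). An added constant shrinks log2 changes of dim probes, and its part was not separated from that of the background correction.

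RPE, the epimerase that turns ribulose 5-phosphate into the xylulose 5-phosphate that transketolase needs, was near the limit of the array. The best of its 3 probes was well above background on 4 CONT and 5 REST arrays. Its normalized signal was −2.12 ± 0.28 in CONT and −2.08 ± 0.28 in REST (mean ± SD, n = 6), and 3 of 6 cows were lower. In the 4 cows of slides 1 and 2, where it could be tested, the change was −0.07 (SE 0.13, limma adjusted p = 0.756, 95% confidence interval from −0.37 to 0.23).

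The transferases of the non-oxidative branch were well above background on all arrays, and neither passed the threshold. TKT, transketolase, moves carbon units in pairs between sugar phosphates. It ranged from 5.54 to 6.02 in CONT (median 5.78) and from 5.37 to 5.82 in REST (median 5.65). It was lower in 5 of 6 cows, with cow 5 at −0.58 and cow 3 at 0.12, and the change was −0.16 (SE 0.10, limma adjusted p = 0.329, 95% confidence interval from −0.38 to 0.07). Its second probe gave −0.17 (adjusted p = 0.286).

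TALDO1, transaldolase, transfers a larger carbon unit and links the route back to fructose 6-phosphate. It ranged from 4.66 to 5.14 in CONT and from 4.66 to 5.00 in REST, and the periods overlapped almost entirely. It was lower in 3 cows and higher in the other 3. The change was −0.08 (SE 0.10, limma adjusted p = 0.660, 95% confidence interval from −0.31 to 0.16), and the second probe also gave −0.08. With normexp and the 75th percentile shift its sign turned (0.044). For both transferases the intervals left room for a fall of about the size measured for PGLS.

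**Figure D2:**
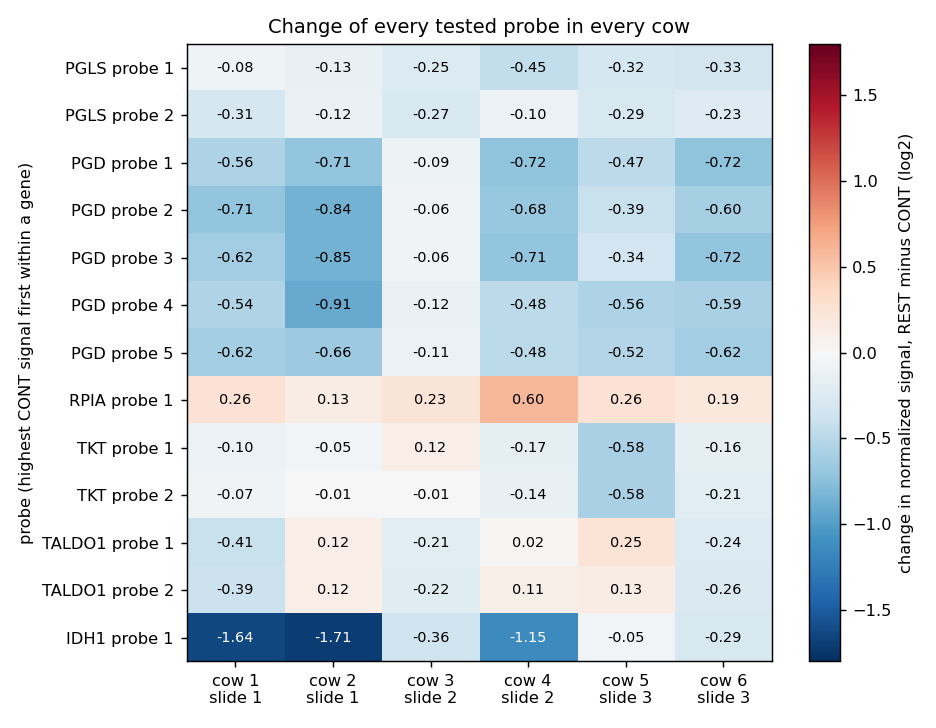
Change in normalized signal (REST minus CONT, log2) of each of the 13 tested probes (vertical axis) in each of the 6 cows (horizontal axis, with the slide), in colour and as printed values; blue is lower in REST and red is higher. The 5 PGD probes are blue in all cows and palest in cow 3, RPIA is red in all cows, and IDH1 is darkest in cows 1, 2 and 4.

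IDH1 oxidizes isocitrate exported from the mitochondria to 2-oxoglutarate and reduces NADP in the cytosol. Its single probe gave 4.48, 4.23, 4.14, 4.03, 3.50 and 4.48 in cows 1 to 6 in CONT, and 2.85, 2.52, 3.77, 2.88, 3.46 and 4.19 in REST. Every cow was lower in REST, but unequally: cows 1, 2 and 4 fell by 1.64, 1.71 and 1.15, and cows 3, 5 and 6 by 0.36, 0.05 and 0.29. The ranges overlapped, because cow 5 was already low in CONT and cow 6 stayed high in REST.

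The IDH1 change was −0.87 (SE 0.23, 95% confidence interval from −1.40 to −0.34, limma adjusted p = 0.0561), which corresponds to −45.2% and was the largest mean fall of the 6 genes, with the widest interval, although not on slide 3. The spread between cows was 0.36 in CONT and 0.64 in REST (SD, n = 6), a difference that was not tested. The mean change was −1.68 on slide 1, −0.76 on slide 2 and −0.17 on the dimmer slide 3, and without slide 3 it was −1.22 (adjusted p = 0.0544). Slide and cow cannot be told apart here, since each cow lay on 1 slide. The call held without cow 3, 5 or 6 and not without cow 1, 2 or 4 (changes −0.71, −0.70 and −0.81; adjusted p = 0.135, 0.153 and 0.147), nor without the cow in the model (adjusted p = 0.111), without moderation of the variances (adjusted p = 0.169) or without the filter on dim probes (adjusted p = 0.167).

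ME1, which reduces NADP while it turns malate into pyruvate, was mostly below what the array could measure. The better of its 2 probes was well above background on 4 of 12 arrays, those of cows 2 and 3 in both periods, and the other on 0 of 12. On the better probe the normalized signal was −3.58 ± 0.76 in CONT and −4.04 ± 0.43 in REST (mean ± SD, n = 6). In the 2 cows in which it was well above background, ME1 went from −3.70 to −3.46 in cow 2 and from −3.23 to −3.62 in cow 3, in opposite directions. No change can be read for ME1.

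The changes of the 6 tested genes were set against each other within the cows, over 16 pairs that included IDH1 with its mitochondrial counterpart IDH2. With 6 cows, the smallest p that the exact two-sided sign-flip test allows is 0.03125, and 6 pairs reached it (Benjamini-Hochberg adjusted p = 0.0833 over the 16 pairs). RPIA moved upwards relative to PGLS, PGD, TKT, TALDO1 and IDH1 in 6 of 6 cows each. Against PGLS, PGD and IDH1 this had to be so, since RPIA rose and each of them fell in 6 of 6 cows. Those pairs are therefore no further evidence, and all of these pairs share RPIA. The contrast was smaller with normexp, where the offset was not separated from the background correction. With normexp and the 75th percentile shift the change was 0.038 for RPIA, 0.044 for TALDO1, −0.018 for TKT, −0.20 for PGLS, −0.41 for PGD and −0.71 for IDH1, so that RPIA no longer stood above TALDO1 and the other gaps were smaller. The change of PGD minus that of RPIA was −0.82 (95% confidence interval from −1.16 to −0.49), and the change of RPIA minus that of IDH1 was 1.14 (0.35 to 1.94). The remaining pair was TALDO1 and IDH1, with IDH1 lower by 0.79 (95% confidence interval from 0.03 to 1.55).

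PGD fell further than TKT in 5 of 6 cows, with a difference of −0.39 (95% confidence interval from −0.69 to −0.08), and further than TALDO1 by a difference of −0.47 (−0.87 to −0.07). Neither passed after adjustment (exact sign-flip p = 0.0625 and adjusted p = 0.125 for both). PGD and IDH1 were not separated, with a difference of 0.32 and an interval from −0.37 to 1.01 (exact sign-flip p = 0.344, adjusted p = 0.393). The interval is wide enough to hold differences in either direction. These intervals assume normally distributed differences between cows.

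IDH2, the NADP-dependent isocitrate dehydrogenase of the mitochondria, was 0.78 ± 0.25 in CONT and 0.13 ± 0.42 in REST (mean ± SD, n = 6). It was lower in 6 of 6 cows, and the lowest CONT array (0.49) was above the highest REST array (0.37). The change was −0.65 (SE 0.14, limma adjusted p = 0.0310), and both tested probes passed. IDH2 missed the threshold without moderation (adjusted p = 0.1003) and without the filter on dim probes (adjusted p = 0.133). The change of IDH1 minus that of IDH2 was −0.22, with a 95% confidence interval from −0.89 to 0.45 (exact sign-flip p = 0.5, adjusted p = 0.533), so the isoforms were not distinguished.

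The pathway around the 8 genes was read from lists of related genes. Of 14 other pentose phosphate and ribose genes with a probe, 10 were tested, and limma called 0 of them at the threshold of 0.1, where 16.2% of all tested genes were called. At an unadjusted p under 0.05 there were 2, PRPSAP1 and PPAT, and the test without moderation also called 0. PRPSAP1, a protein associated with the enzyme that makes phosphoribosyl pyrophosphate from ribose 5-phosphate, had a change of 0.38 (limma adjusted p = 0.113), and PPAT, which starts purine synthesis from that product, one of −0.24 (limma adjusted p = 0.172). These 2 were chosen after their values were seen. The median change of the 10 genes was −0.05. TKTL1, TKTL2 and RGN were not well above background often enough to be tested, and H6PD and IDNK were not analysed here.

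Of 9 tested genes that make NADPH by other routes or make NADP itself, IDH2 changed and the other 8 did not pass, a share near the 16.2% of all tested genes. Those 8 were GLUD1, ME2, ME3, MTHFD1, MTHFD2, ALDH1L1, NADK and NADK2, of which ME2 and MTHFD2 work mainly with NAD. The median change of the 9 was −0.12. NADK, the kinase that makes NADP from NAD, was at −0.18 (SE 0.09, limma adjusted p = 0.213), named after its value was seen.

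Among the genes that bring citrate and malate carbon to the cytosol, 9 were tested and 3 fell, where 9.27% of all tested genes did, each lower in 6 of 6 cows (10.8% of all tested genes): MDH2 by 0.42 on the log2 scale (limma adjusted p = 0.0330), MDH1 by 0.41 (limma adjusted p = 0.0407) and CS by 0.28 (limma adjusted p = 0.0770). MDH1 and MDH2 are the malate dehydrogenases of cytosol and mitochondria, and CS is citrate synthase. For CS, 1 of its 3 tested probes passed, and the call did not hold without the cow in the model (adjusted p = 0.184) or without cow 1, 2, 4 or 6 (adjusted p from 0.118 to 0.198), and with 5 further settings it missed the threshold too (adjusted p from 0.105 to 0.233), with a change of −0.18 when normexp preceded the 75th percentile shift. MDH1 missed the threshold without cow 4 (adjusted p = 0.104), without slide 3 (adjusted p = 0.127) and when normexp preceded the 75th percentile shift (−0.26, adjusted p = 0.112). Without the filter on dim probes neither MDH1 nor MDH2 passed (adjusted p = 0.149 and 0.138). ACLY, the lyase that splits cytosolic citrate into acetyl-CoA, did not pass, at −0.11 (SE 0.08, limma adjusted p = 0.411, 95% confidence interval from −0.29 to 0.07). The median change of the 9 genes was −0.16.

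Most falls among the 4 related lists were in that of genes whose products consume NADPH. Of 22 tested, 12 fell and 0 rose (limma; 14 at an unadjusted p under 0.05 in either direction), where 9.27% of all tested genes fell, with a median change of −0.43. Without the cow in the model 10 fell, where 4.4% of all tested genes changed. The list also held NSDHL, a dehydrogenase of sterol synthesis that forms NADH or NADPH and does not consume it, and without it 11 of 21 fell, with a median change of −0.36, and 9 without the cow in the model. Among the 12 were TM7SF2, CYP51A1, SQLE, FDFT1, MSMO1 and DHCR7 of sterol synthesis, HSD17B12 and TECR of fatty acid elongation, and the aldehyde reductase AKR1A1. Among the greatest falls were those of TM7SF2 (−1.48), CYP51A1 (−1.25) and SQLE (−1.17), with limma adjusted p from 0.0012 to 0.0108.

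The reductases of glutathione, thioredoxin and quinones were not among the 12. GSR, the reductase that recycles glutathione with NADPH, was at −0.20 (SE 0.15, limma adjusted p = 0.411, 95% confidence interval from −0.53 to 0.13), but passed without cow 5 (−0.35, adjusted p = 0.0769). TXNRD1, the cytosolic thioredoxin reductase, was at −0.11 (limma adjusted p = 0.571) and the quinone reductase NQO1 at −0.14 (limma adjusted p = 0.303). CYBB, the NADPH oxidase subunit of phagocytes, stood at 0.44 and missed the threshold (limma adjusted p = 0.102). TXNRD1, NQO1 and CYBB were named after their values were seen. FASN was not analysed here.

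**Figure D3:**
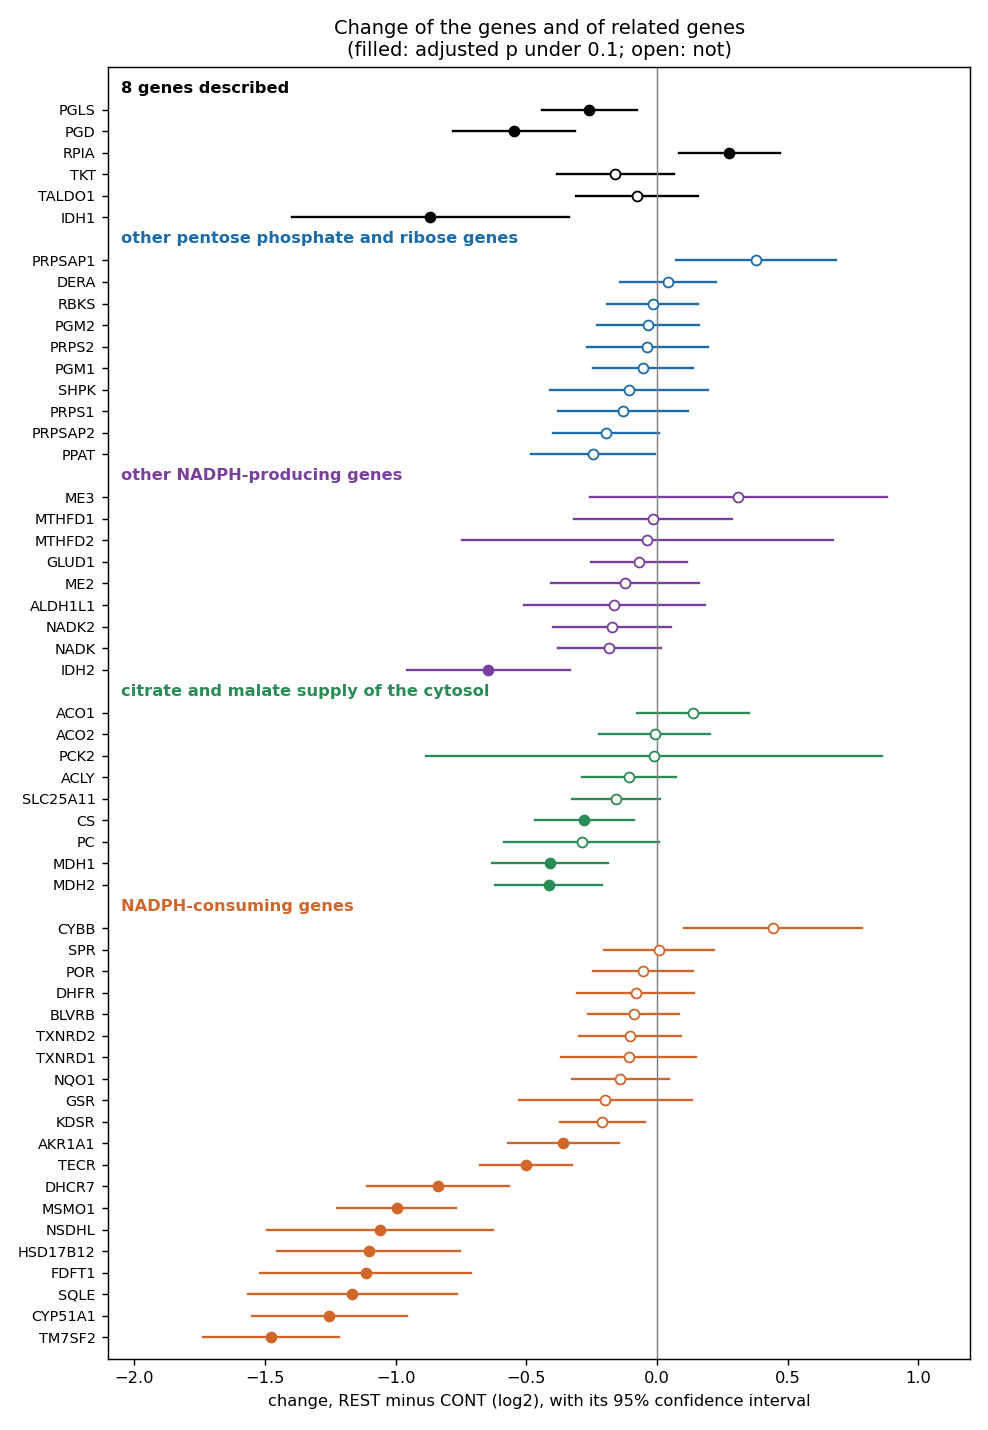
Change (REST minus CONT, log2, horizontal axis) of the tested genes among the 8 and of the tested genes in 4 related lists, with 95% confidence intervals and without genes not reported here; filled points have a limma adjusted p under 0.1. NADPH-consuming genes reach from TM7SF2 at −1.48 to CYBB at 0.44, and no point among the other pentose phosphate and ribose genes is filled; NSDHL, drawn with the NADPH-consuming genes, does not consume NADPH.

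By Pearson r over the 12 arrays, the patterns most like that of IDH1 among 7928 genes were those of BDH1 (r = 0.971), a ketone body dehydrogenase, AMD1 (r = 0.970), which serves polyamine synthesis, and ABCG2 (r = 0.962), a transporter of the apical membrane. BDH1 changed by −1.79 (limma adjusted p = 0.0219), ABCG2 by −1.32 (limma adjusted p = 0.0239) and AMD1 by −0.60 (limma adjusted p = 0.0990). For PGD the nearest were SLC2A1 (r = 0.933), the glucose transporter GLUT1, with a change of −0.54 (limma adjusted p = 0.0153), GOT2 (r = 0.924), the mitochondrial aspartate aminotransferase, with −0.51 (limma adjusted p = 0.00797), and PCYT2 (r = 0.919), of phosphatidylethanolamine synthesis, with −1.02 (limma adjusted p = 0.0141). The points share cows, slides and period, so the difference between the periods is part of each r, and r is given as a description.

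PGD and IDH1 correlated with each other at r = 0.760, and with IDH2 at 0.826 and 0.733. The remaining enzymes followed PGD less closely. Across the 12 arrays PGD had r = 0.408 with PGLS, 0.229 with TKT, 0.181 with TALDO1 and −0.157 with RPIA.

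The tissue label was checked with marker genes, whose counts stand against the 9.27% of all tested genes that fell and the 6.94% that rose. The 6 tested genes of milk protein and secretory epithelium had a mean normalized signal between 9.65 and 9.96 on CONT arrays and between 9.34 and 9.72 on REST arrays, lower in 6 of 6 cows, and 2 of them fell (6 at an unadjusted p under 0.05). The mean of 6 luminal epithelial genes ranged from 4.10 to 4.79 in CONT and from 4.43 to 4.93 in REST, higher in 6 of 6 cows, and 2 of them rose, KRT8 and KRT18, although the 3 tested KRT8 probes ran from −0.14 to 0.72. Myoepithelial genes gave 2.73 to 3.46 and 2.61 to 3.36, lower in 5 of 6 cows, with 2 of 6 falling (ACTA2 and CNN1).

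Of the other markers tested, 1 of 2 of adipocytes fell (CIDEA), while the other moved upwards, both at an unadjusted limma p under 0.05. In skeletal muscle 1 of 2 fell (CKM), and the other moved upwards. In leukocytes 1 of 6 rose (CD3E), with 3 of the 6 higher and 3 lower in REST. These lists thus had no common direction. For adipocytes, PLIN1, LEP and CIDEC were not well above background often enough to be tested. In limma 0 of 4 of blood endothelium, 0 of 6 of fibroblasts and 0 of 1 of erythrocytes changed, with 0, 2 and 1 at an unadjusted p under 0.05, and 0 in each without moderation. Without the cow in the model 0 genes of any of these marker lists passed. Without moderation 4 passed of the milk protein list, 1 each of luminal epithelium, myoepithelium and adipocytes, and 0 of skeletal muscle and leukocytes. The part of these shifts in the changes of the 8 genes was not tested, and in biopsies fewer cells of a type and less mRNA per cell cannot be told apart.

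**Figure D4:**
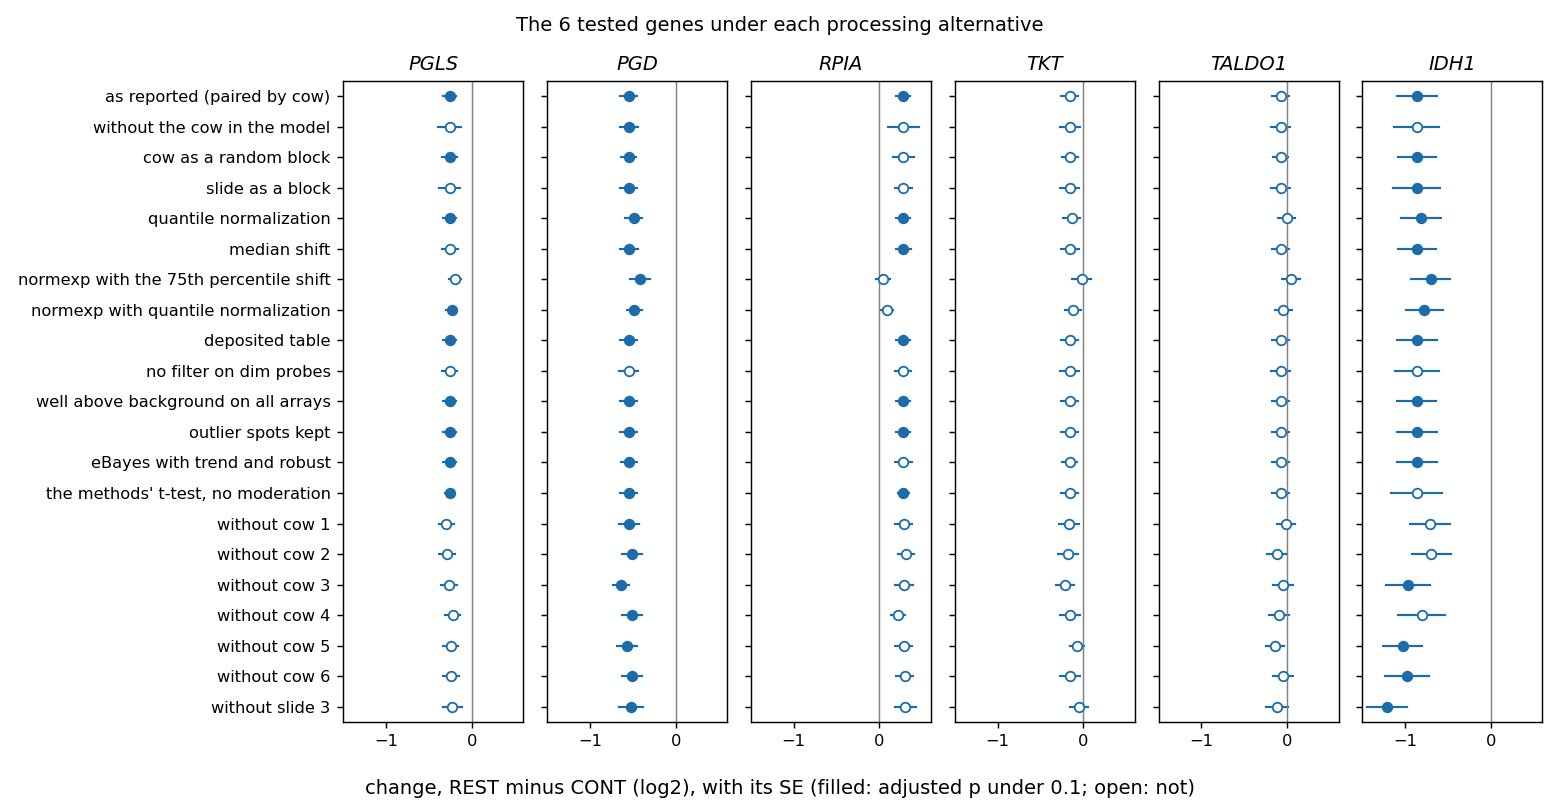
Change (REST minus CONT, log2, horizontal axis) with its SE for each of the 6 tested genes under the reported analysis and 20 alternatives (vertical axis); filled points have an adjusted p under 0.1. PGD stays filled in all but the analysis without a filter on dim probes, IDH1 opens in 6 alternatives, among them those without cow 1, 2 or 4, and PGLS and RPIA open in more, among them each that leaves out 1 cow.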

How the data were processed

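Per the file headers, the authors extracted spot intensities with Agilent Feature Extraction 11, and the deposited processed signal is a background-subtracted intensity on a linear scale; the deposited series table held the same intensity on all 12 arrays (relative tolerance 1e-09). Neither was scaled between arrays. Here spots called non-uniform or population outliers were dropped (1 to 13 per array, 0 in the probes of the 8 genes), log2 was taken, the 75th percentile subtracted, and 50 repeated probes averaged. RefSeq identifiers gave 27131 of 43653 probes (62.2%) a symbol. The grid and the reference table use different assemblies, so no positions are given.

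REST and CONT were compared with limma 3.58.1 (lmFit, eBayes; R 4.3.3) with cow as a block, tested on simulated data first, and Benjamini-Hochberg adjustment over 19403 probes. Cows came from the animal names in the labels, and arrays of 1 cow deviated together (r from 0.356 to 0.574, against −0.326 to 0.135 for different cows). Pairs of genes used exact sign-flip tests (SciPy 1.17.1). Genes named were the 8, at most 4 called members of each list by absolute change, H6PD, IDH2, ACLY, FASN and GSR, and the 3 genes most like IDH1 and PGD; further list members are named to say which genes a count holds, or are marked as chosen after their values were seen. Some genes of the lists count in the totals but their values are left out here. Members and lists were chosen with earlier results of these data known. Alternatives changed normalization, background, filter, block, moderation and cows. Normexp was run on median spot signals with an offset of 50. The number of arrays limits precision.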

Additional observations from a re-analysis of the deposited data

How the results depend on the processing

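Of the 4 changes among the 6 tested genes, the count was 1 without the cow in the model (no replicate block; PGD), 2 with the slide as a block, with normexp and the 75th percentile shift, and without slide 3 (an alternative chosen after seeing the data; PGD and IDH1 each time), and 0 without a filter on dim probes, where more probes were tested and 0 of 8 genes passed. It was 3 with the cow as a random block, with trend and robust eBayes and with normexp before quantile normalization, where RPIA was lost (adjusted p = 0.161, 0.110 and 0.458), with the median shift, where PGLS was lost (0.117), and without moderation, where IDH1 was lost (0.169). Leaving out 1 cow gave 1 to 2, PGD each time and IDH1 without cow 3, 5 or 6. The probes called over the whole array were 836 without the cow, 1898 with the slide, 388 without the filter and 1852 without moderation (a t-test, as the methods name, paired here by cow, which they do not state), against 3104, and 1045 to 3252 with 1 cow left out, lowest without cow 2, then cow 4 (1205) and cow 1 (1533). Higher and lower probes numbered 1401 and 1703, 1545 and 1564 after quantile normalization, and 1985 and 1692 when normexp came before the 75th percentile shift. Across the 6 genes the median change came to −0.11 when normexp preceded the 75th percentile shift and to −0.12 within slide 1, and otherwise lay between −0.25 and −0.17 (−0.24 to −0.19 with 1 cow left out). TALDO1 turned to 0.044 with that normexp setting. Under it 1 of the other pentose phosphate and ribose genes and 2 of the other NADPH-producing genes passed, and with 1 cow left out 0 to 1 and 1 to 2 did. NADPH-consuming genes that passed numbered 10 to 13 in the 8 alternatives in which the lists were counted: without the cow, that normexp setting and each cow left out. Without cow 1, 13 passed and 12 of them fell, so not all were falls. In the other alternatives all that passed fell. The replicate block removed changed no other call among IDH2, MDH1, MDH2, TM7SF2, CYP51A1 and SQLE.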

Other observations

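Among 10 tested genes that share regulation by the transcription factor NRF2 with several pentose phosphate enzymes, 2 rose and 0 fell, where 6.94% of all tested genes rose and 16.2% changed in either direction, and the median change was −0.02. The 2 were the ferritin subunits, which store iron. FTH1 was 6.98 ± 0.16 in CONT and 7.31 ± 0.21 in REST (mean ± SD, n = 6), a change of 0.33 (limma adjusted p = 0.0365), and FTL was 5.71 ± 0.25 and 6.11 ± 0.26, a change of 0.39 (limma adjusted p = 0.0460). Both were higher in 6 of 6 cows, and all 6 probes of FTH1 and all 5 of FTL passed. Neither passed without the cow in the model (adjusted p = 0.170 and 0.187), without cow 2 (0.110 and 0.128) without slide 3 (0.135 and 0.114) or without the filter on dim probes (0.145 and 0.156), nor FTL without cow 1 (0.1002). Ferritin genes have processed copies in mammalian genomes, so cross-hybridization of these probes was not tested.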
